A study of Rattus norvegicus with 21 samples.

Results

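A set of 8 genes of the cell division cycle was followed through every condition of a study of the transcription factor KLF2 in heart muscle cells. They were chosen by Ensembl ID, and all 8 IDs were among the 30560 rows of both deposited count tables and passed the filter on low counts in both. The names were given with the list of IDs: Mki67 (ENSRNOG00000028137), Top2a (ENSRNOG00000053047), Cdk1 (ENSRNOG00000000632), Ccnb1 (ENSRNOG00000058539), Ccna2 (ENSRNOG00000015423), Pcna (ENSRNOG00000021264), Ccnd1 (ENSRNOG00000020918) and Cdkn1a (ENSRNOG00000000521). The RefSeq gene table used here carries no Ensembl IDs, so these pairings were not checked against it.

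The cells were cultured neonatal rat ventricular myocytes (NRVMs), taken from the hearts of newborn rats, and 20 RNA sequencing libraries fell into 8 groups. In the knockdown experiment cells received a small interfering RNA against Klf2 (siKlf2) or a negative control (siNeg) 12 h before phenylephrine (PE) or no PE, with 2 libraries per group. In the overexpression experiment cells were kept for 12 h with or without PE and then infected for 24 h with an adenovirus carrying Klf2 (AdKlf2) or green fluorescent protein (AdGFP), with 3 libraries per group. PE, which activates α1-adrenergic receptors and makes these cells grow in size, was used at 100 µM for 36 h in all. Groups without PE are those labelled as 0 h of treatment, since the agent itself is listed for every library. They too received a virus or a small interfering RNA. Whether the replicates of a group were separate cultures is not stated in the labels. The p-values therefore reflect only the variation among these libraries, which may be technical. The labelled cell type was not checked against marker genes here, and neither was the level of Klf2 itself.

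Progress through the cell cycle is driven by cyclin-dependent kinases that are switched on by cyclins made in turn. Cyclin D1 (Ccnd1) acts in G1 and links growth signals to the cycle, cyclin A2 (Ccna2) acts in S and G2, and cyclin B1 (Ccnb1) joins the kinase Cdk1 to start mitosis. Top2a untangles replicated chromosomes, Mki67 encodes the Ki-67 protein used as a marker of cycling cells, and Pcna is the sliding clamp of DNA polymerases and also serves in DNA repair. Cdkn1a encodes an inhibitor of cyclin-dependent kinases that is induced by p53 and by other stress and differentiation signals. Rodent cardiomyocytes stop dividing soon after birth, and cultures of newborn ventricle can also hold dividing cells of other types.

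Promoter windows are shown for 5 members because of their levels when Klf2 was knocked down or added. Mki67, Top2a and Cdk1 then had lower means than in the controls of both experiments. Ccnb1 left them in 1 condition, and Cdkn1a had higher means than in the controls. Each window runs from 250 bases before to 50 bases after the start of the gene in RefSeq, on build GRCr8 and in the direction of the gene. Windows were matched by symbol for 6 of the 8 members, not for Ccna2 and Ccnd1. Capitals mark 4 motifs searched on both strands: TTTGAA and TTCGAA (forms of the CHR, a site of cell cycle genes bound by MuvB complexes), CCAAT (bound by NF-Y) and CACCC (a core bound by KLF proteins).

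Mki67 (GRCr8, chr1:199952544-199952843, - strand): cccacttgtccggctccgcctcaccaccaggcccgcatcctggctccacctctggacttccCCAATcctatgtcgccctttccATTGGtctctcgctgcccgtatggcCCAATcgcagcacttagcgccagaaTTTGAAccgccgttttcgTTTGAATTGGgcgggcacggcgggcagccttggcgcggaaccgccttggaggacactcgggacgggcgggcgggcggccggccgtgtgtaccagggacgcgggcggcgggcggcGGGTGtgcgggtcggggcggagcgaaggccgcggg

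Top2a (GRCr8, chr10:84473044-84473343, - strand): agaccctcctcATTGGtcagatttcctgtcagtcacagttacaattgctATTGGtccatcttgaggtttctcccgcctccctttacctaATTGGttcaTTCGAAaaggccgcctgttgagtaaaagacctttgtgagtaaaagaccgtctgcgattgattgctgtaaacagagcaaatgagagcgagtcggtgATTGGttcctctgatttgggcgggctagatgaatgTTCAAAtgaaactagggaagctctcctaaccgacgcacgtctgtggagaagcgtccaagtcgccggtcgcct

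Cdk1 (GRCr8, chr20:19265043-19265342, + strand): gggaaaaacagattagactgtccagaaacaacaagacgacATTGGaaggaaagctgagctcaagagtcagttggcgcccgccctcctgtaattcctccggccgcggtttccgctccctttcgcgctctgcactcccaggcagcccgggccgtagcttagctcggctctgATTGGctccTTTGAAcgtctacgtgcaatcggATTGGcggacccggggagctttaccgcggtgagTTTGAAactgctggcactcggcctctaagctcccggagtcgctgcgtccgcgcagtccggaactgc

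Ccnb1 (GRCr8, chr2:33655176-33655475, - strand): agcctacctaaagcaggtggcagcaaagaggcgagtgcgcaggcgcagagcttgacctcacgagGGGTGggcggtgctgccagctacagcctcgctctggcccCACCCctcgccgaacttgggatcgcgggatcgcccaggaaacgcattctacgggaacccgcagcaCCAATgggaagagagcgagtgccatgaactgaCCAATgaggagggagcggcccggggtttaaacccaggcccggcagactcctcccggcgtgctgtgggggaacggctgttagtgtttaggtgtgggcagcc

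Cdkn1a (GRCr8, chr20:7150682-7150981, + strand): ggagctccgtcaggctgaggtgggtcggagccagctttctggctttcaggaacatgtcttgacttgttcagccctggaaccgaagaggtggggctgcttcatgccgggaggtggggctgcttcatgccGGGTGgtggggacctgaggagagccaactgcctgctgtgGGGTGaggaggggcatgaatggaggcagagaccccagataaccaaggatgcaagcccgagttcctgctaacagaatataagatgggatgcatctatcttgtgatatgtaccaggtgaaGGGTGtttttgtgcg

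The Mki67 window held TTTGAA at 2 positions, CCAAT at 4 and CACCC at 1, and the second TTTGAA overlapped a CCAAT by its last base. The Top2a window held TTTGAA at 1 position, the palindrome TTCGAA at another and CCAAT at 4, and the Cdk1 window held TTTGAA at 2 positions and CCAAT at 3. The Ccnb1 window held CCAAT at 2 positions, CACCC at 2 and neither TTTGAA nor TTCGAA. Other forms of the CHR were not searched, so the Ccnb1 window may still hold one. The Cdkn1a window held CACCC at 3 positions and none of the other motifs searched. In the Pcna window, not shown, CCAAT and CACCC were found at 1 position each. Over all 33469 promoter windows of the same length, 18.3% held TTTGAA, 1.69% TTCGAA, 37.5% CCAAT and 54.9% CACCC. These matches describe letters only, and whether the RefSeq starts are the ones used in these cells was not analysed. The KLF2 peaks of the series are on another build, mRatBN7.2, and were not used here.

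Levels are given in CPM (counts relative to the library total, scaled by its TMM factor) and are compared within a gene and within a table only. Total counts per library were 181101876 to 224082309 for knockdown and 32693762 to 76138723 for overexpression. The members' raw counts were 315 or more for Cdk1, 261 or more for Ccna2 and 509 or more for the others in every library. Between 59.8% and 82.2% of counts from 1 to 20 were even. Whether both mates of a read pair were counted is not stated, and halving the counts is among the alternatives. The 3 AdGFP libraries without PE stood apart: 539 to 776 genes had 1 to 5 counts in them, against 1728 to 2022 in the other 9 libraries of that table. Of their counts from 1 to 20, 80.5% to 82.2% were even, against 72.1% to 77.9% in those 9. Their log2 CPM correlated with each other at 0.959 to 0.965, against 0.982 to 0.991 within the other groups of that table. In bulk RNA, fewer cycling cells and less RNA per cell cannot be told apart. Unless another tool is named, adjusted p-values are from edgeR's quasi-likelihood test with Benjamini-Hochberg adjustment over all tested genes, with calls made under 0.05. Statements that the libraries of groups did not overlap are description. The share of all tested genes with such groups was not counted.

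In siKlf2 cells the S phase and mitotic members were lower and Cdkn1a and Ccnd1 higher than in siNeg cells, with and without PE. All 8 members were called in siKlf2 against siNeg without PE, 6 lower and 2 higher, where 53.9% of the 18173 tested genes were called, 27.2% higher and 26.8% lower. With library totals alone, 21.9% of all called genes were higher, in place of 50.3%, and every member kept its call and direction. Of the 8, 6 changed by at least 1.5-fold, against 17.3% of all tested genes. The members' median log2 fold change was -1.22, beside -0.02 over all tested genes.

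Mki67 had 10.4 and 11.3 CPM in siKlf2 libraries, against 24.5 and 26.3 CPM in siNeg libraries. It was 2.33-fold lower (log2 fold change -1.22, SE 0.0769, adjusted p = 1.62e-07). Top2a had 8.15 and 8.09 CPM in siKlf2, against 23.6 and 23.0 CPM in siNeg. Each siKlf2 pair lay far under its siNeg pair, and the Top2a difference was 2.87-fold (log2 fold change -1.52, SE 0.115, adjusted p = 7.08e-07). Cdk1 had 4.44 and 4.75 CPM in siKlf2, against 10.6 and 10.7 CPM in siNeg (log2 fold change -1.22, SE 0.0865, adjusted p = 4.36e-07). Its partner Ccnb1 had 4.01 and 4.59 CPM in siKlf2, against 10.01 and 10.2 CPM in siNeg (log2 fold change -1.24, SE 0.0896, adjusted p = 5.16e-07). The kinase and its mitotic cyclin thus had nearly equal fold changes, and neither gene's groups overlapped. Ccna2 had 3.99 and 4.02 CPM in siKlf2, against 11.4 and 11.7 CPM in siNeg, and was 2.88-fold lower (log2 fold change -1.53, SE 0.0683, adjusted p = 1.2e-08).

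Pcna had the log2 fold change nearest to 0 of the members that fell. It had 36.3 and 34.6 CPM in siKlf2, against 40.5 and 42.8 CPM in siNeg (log2 fold change -0.23, SE 0.046, adjusted p = 0.00125). Ccnd1, the G1 cyclin, went the other way from the S phase and mitotic cyclins. It had 54.1 and 53 CPM in siKlf2, against 36.2 and 36.8 CPM in siNeg (log2 fold change 0.55, SE 0.0328, adjusted p = 1.07e-07). Cdkn1a, the inhibitor, had 672 and 673 CPM in siKlf2, against 267 and 249 CPM in siNeg. The knockdown libraries were close to each other and above both controls, a 2.6-fold rise (log2 fold change 1.38, SE 0.0433, adjusted p = 9.78e-10).

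With PE present the same 6 members fell in siKlf2 and the same 2 rose, where 54.3% of tested genes were called, 26.1% higher and 28.2% lower. With library totals alone, 15.9% of all called genes were higher, in place of 48.1%, and every member kept its call and direction. Of the members, 7 changed by at least 1.5-fold, against 18% of all tested genes, and the members' median was -1.09 beside -0.04 over all tested genes. Mki67 had 11.1 and 9.24 CPM in siKlf2 with PE, against 22.2 and 21.4 CPM in siNeg with PE (log2 fold change -1.10, SE 0.0778, adjusted p = 3.91e-07). Top2a had 11.0 and 7.75 CPM in siKlf2 with PE, against 23.1 and 24.3 CPM in siNeg with PE (log2 fold change -1.34, SE 0.114, adjusted p = 1.85e-06). The Top2a spread in siKlf2 with PE was 24.5% of its mean, the widest of any member in any group, yet both libraries stayed under both controls. Cdk1 had 4.20 and 3.69 CPM in siKlf2 with PE, against 9.96 and 8.63 CPM in siNeg with PE (log2 fold change -1.24, SE 0.0884, adjusted p = 4.29e-07). Ccnb1 had 4.85 and 4.17 CPM in siKlf2 with PE, against 9.10 and 9.90 CPM in siNeg with PE (log2 fold change -1.08, SE 0.0901, adjusted p = 1.58e-06). The mitotic kinase and cyclin were again lower in every knockdown library than in any control. Ccna2 had 3.69 and 3.48 CPM in siKlf2 with PE, against 9.33 and 8.63 CPM in siNeg with PE (log2 fold change -1.33, SE 0.0697, adjusted p = 3.67e-08).

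Pcna had 38.1 and 37.1 CPM in siKlf2 with PE, against 44.0 and 40.9 CPM in siNeg with PE (log2 fold change -0.18, SE 0.0461, adjusted p = 0.00739). This small fall was the only call of the comparison to be lost in any alternative, without siNeg with PE replicate 1 (adjusted p = 0.0597) or siKlf2 with PE replicate 2 (adjusted p = 0.0995), with adjusted p from 1.2e-05 to 0.0995 over the 16 alternatives. Ccnd1 had 74.4 and 75.4 CPM in siKlf2 with PE, against 44.4 and 42.8 CPM in siNeg with PE (log2 fold change 0.78, SE 0.0326, adjusted p = 5.87e-09). Cdkn1a had 778 and 818 CPM in siKlf2 with PE, against 283 and 299.8 CPM in siNeg with PE, a 2.74-fold rise (log2 fold change 1.45, SE 0.0434, adjusted p = 4.92e-10). The siKlf2 libraries with PE held the highest levels of both Ccnd1 and Cdkn1a in the knockdown table.

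**Figure D1:**
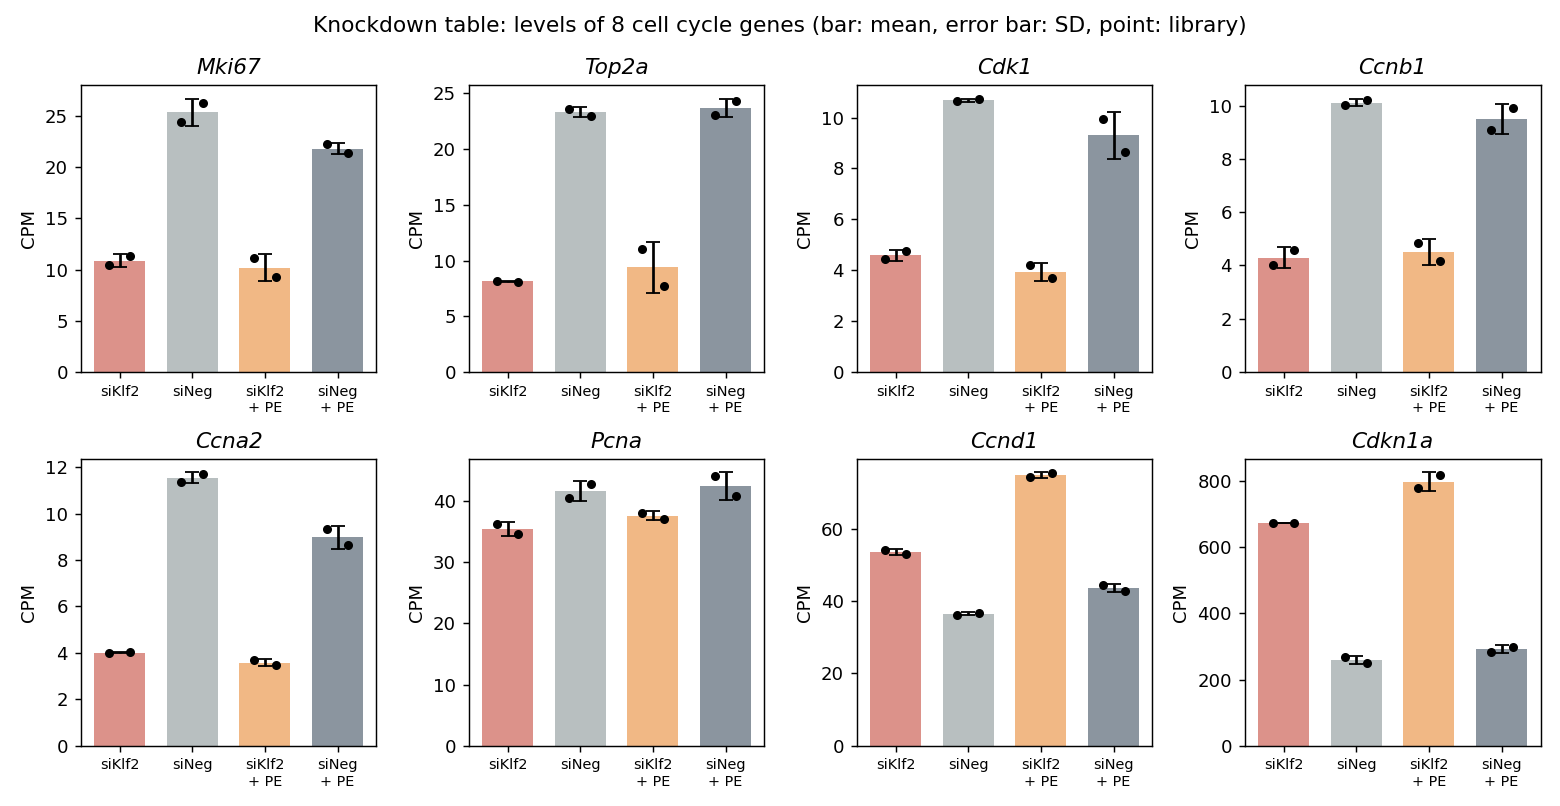
Levels of the 8 genes in the knockdown table in CPM (vertical axis from 0), by group, with bars for means, error bars for SD and points for the 2 libraries of each group. Cdkn1a averages 672 CPM in siKlf2 and 258 CPM in siNeg, and Ccna2 4.004 CPM in siKlf2 and 11.5 CPM in siNeg, while Pcna averages 35.5 CPM in siKlf2 and 41.6 CPM in siNeg.

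The next comparison asked whether adding KLF2 moved the same genes. Without PE the S phase and mitotic members had log2 fold changes between -0.42 and -0.11, while Cdkn1a and Ccnd1 rose. In AdKlf2 against AdGFP without PE 5 of 8 members were called, 3 lower and 2 higher, where 35.1% of the 16153 tested genes were called, 20% higher and 15.1% lower. Of the members called, Ccnd1 and Cdkn1a passed a fold of at least 1.5, against 15.8% of all tested genes. The members' median was -0.22, beside 0 over all tested genes. The AdGFP libraries that stood apart are the whole control of this comparison. Their part in it was not tested beyond leaving out each one.

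Mki67 had 48.0, 52.1 and 41.7 CPM in AdKlf2, against 60.2, 64.3 and 51.3 CPM in AdGFP, with groups that overlapped (log2 fold change -0.31, SE 0.1, adjusted p = 0.0221). Top2a had 42.6, 43.4 and 43.1 CPM in AdKlf2, against 47.4, 51.6 and 49.3 CPM in AdGFP (log2 fold change -0.20, SE 0.0851, adjusted p = 0.0764). Cdk1 had 17.2, 14.7 and 18.8 CPM in AdKlf2, against 20.7, 19.5 and 22.0 CPM in AdGFP (log2 fold change -0.30, SE 0.119, adjusted p = 0.0622). The groups of Top2a and Cdk1 did not overlap, but neither passed the test. Both were called lower with library totals alone, and Cdk1 also with DESeq2 and with counts halved (adjusted p from 0.0387 to 0.308 for Top2a and from 0.0405 to 0.357 for Cdk1 over 20 alternatives each). Ccnb1 had 20.6, 16.9 and 22.7 CPM in AdKlf2, against 23.8, 20.8 and 20.4 CPM in AdGFP, with groups that overlapped (log2 fold change -0.11, SE 0.106, adjusted p = 0.457). Ccna2 fell, with 16.8, 18.4 and 19.6 CPM in AdKlf2 and 25.6, 22.5 and 25.2 CPM in AdGFP (log2 fold change -0.42, SE 0.101, adjusted p = 0.00302). Among the S phase and mitotic members it had the most negative value in this comparison. Pcna had 49.6, 49.99 and 51.5 CPM in AdKlf2, against 57.6, 55.6 and 64.6 CPM in AdGFP (log2 fold change -0.24, SE 0.0724, adjusted p = 0.0163).

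Ccnd1 had 61.0, 64.3 and 66.9 CPM in AdKlf2, against 41.2, 41.2 and 37.5 CPM in AdGFP, a 1.6-fold rise (log2 fold change 0.68, SE 0.0717, adjusted p = 4.08e-07). Cdkn1a had 403, 398 and 473 CPM in AdKlf2, against 168, 154 and 153 CPM in AdGFP. Every AdKlf2 library was far above every AdGFP library, a 2.68-fold rise (log2 fold change 1.42, SE 0.0657, adjusted p = 4.4e-12). Cdkn1a was thus higher in siKlf2 and in AdKlf2 cells, each against its own control. The calls of Mki67 and Pcna depended on single libraries. Mki67 missed the threshold without AdGFP replicate 1 or 2, without AdKlf2 replicate 1 or 3, and without replicate 2 of AdGFP with PE or any library of AdKlf2 with PE, which enter only the shared spread and the scaling (adjusted p from 0.00656 to 0.203 over 20 alternatives). Pcna missed it without AdGFP replicate 3 or AdKlf2 replicate 1 or 2 (adjusted p from 0.00365 to 0.119 over 20 alternatives).

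In cells with PE, Ccnb1 rose in AdKlf2 while the other S phase and mitotic members fell. All 8 members were called, 6 lower and 2 higher, but 65.8% of all tested genes were called in this comparison too, 33.6% higher and 32.1% lower. Of the members, 6 changed by at least 1.5-fold, against 46.1% of all tested genes. The members' median was -0.58, beside -0.03 over all tested genes.

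Mki67 had 29.6, 28.1 and 28.8 CPM in AdKlf2 with PE, against 40.9, 50.5 and 51.0 CPM in AdGFP with PE (log2 fold change -0.72, SE 0.103, adjusted p = 5.68e-06). Top2a had 18.7, 22.3 and 19.6 CPM in AdKlf2 with PE, against 37.2, 46.0 and 42.1 CPM in AdGFP with PE, a 2.08-fold fall (log2 fold change -1.05, SE 0.0884, adjusted p = 4.01e-09). Cdk1 had 8.23, 9.87 and 7.73 CPM in AdKlf2 with PE, against 14.0, 15.2 and 15 CPM in AdGFP with PE (log2 fold change -0.78, SE 0.124, adjusted p = 1.83e-05). In all of these the AdKlf2 libraries lay below every AdGFP library. Ccna2 had 7.79, 8.18 and 7.93 CPM in AdKlf2 with PE, against 13.7, 13.1 and 12.6 CPM in AdGFP with PE (log2 fold change -0.72, SE 0.107, adjusted p = 8.6e-06). Pcna had 50.6, 44.9 and 50.7 CPM in AdKlf2 with PE, against 66.5, 63.5 and 68.6 CPM in AdGFP with PE (log2 fold change -0.44, SE 0.0728, adjusted p = 3.05e-05). The clamp gene's log2 fold change was nearer to 0 than those of Cdk1 and Top2a here, a difference between genes that was not tested.

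Ccnb1 rose to 81.0, 79.7 and 78.9 CPM in AdKlf2 with PE, against 14.4, 16.0 and 18.1 CPM in AdGFP with PE. The 3 libraries agreed closely and stood 4.95-fold above their controls (log2 fold change 2.31, SE 0.109, adjusted p = 7.86e-13). By size this change ranked 2239 of 16153 tested genes. RefSeq on GRCr8 lists no gene overlapping Ccnb1 and no pseudogene under its name, but the counts were made on mRatBN7.2. Copies under other names were not searched, and whether reads were shared with copies was not tested. The tables give 1 total per gene, so where in Ccnb1 the added reads lay was not analysed here. Ratios of counts within a library do not depend on the scaling between libraries. Ccnb1 had 9.84, 8.07 and 10.2 counts per Cdk1 count in AdKlf2 with PE, against 1.03, 1.05 and 1.21 in AdGFP with PE. Over all other 9 libraries of the table that ratio lay between 0.925 and 1.21, and over the 8 knockdown libraries between 0.902 and 1.16. Ccna2, in contrast, had 0.947, 0.829 and 1.03 counts per Cdk1 count in AdKlf2 with PE, against 0.978, 0.862 and 0.84 in AdGFP with PE.

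Ccnd1, higher in AdKlf2 cells without PE, was lower in those with PE. It had 49.0, 48.3 and 49.0 CPM in AdKlf2 with PE, against 60.5, 59.0 and 52.2 CPM in AdGFP with PE (log2 fold change -0.23, SE 0.0719, adjusted p = 0.00884). That call was lost without AdGFP with PE replicate 1 (adjusted p = 0.0838) or replicate 2 (adjusted p = 0.0591), and adjusted p ran from 0.000671 to 0.0838 over 20 alternatives. Cdkn1a had 807, 776 and 787 CPM in AdKlf2 with PE, against 249.9, 225 and 226 CPM in AdGFP with PE, a 3.39-fold rise (log2 fold change 1.76, SE 0.0662, adjusted p = 2.77e-14). Cdkn1a had 98.1, 78.6 and 102 counts per Cdk1 count in AdKlf2 with PE, against 17.8, 14.8 and 15.1 in AdGFP with PE. In the knockdown table the same ratio was 151 and 142 in siKlf2, against 25.1 and 23.2 in siNeg.

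**Figure D2:**
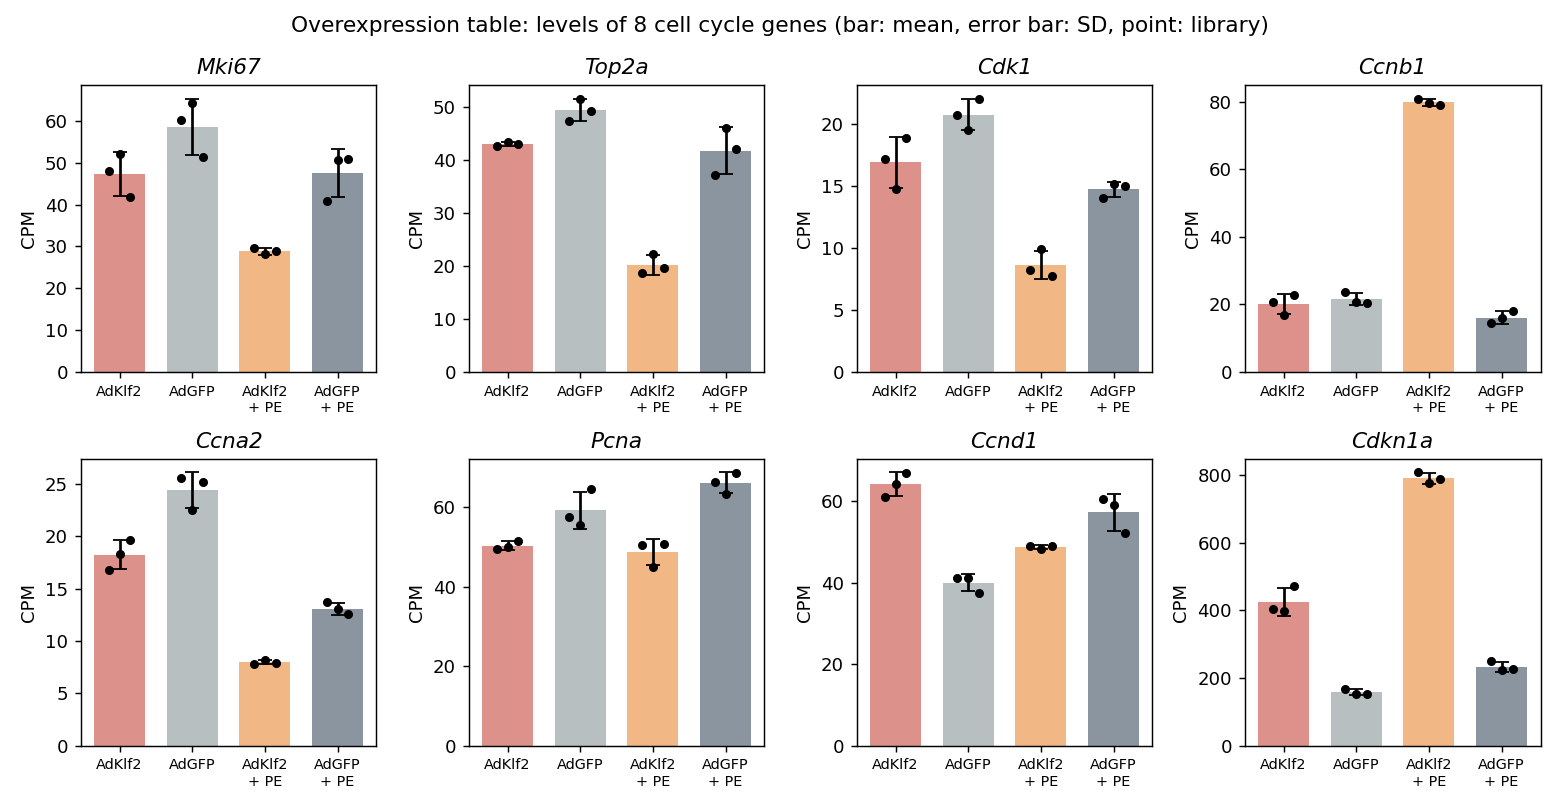
Levels of the 8 genes in the overexpression table in CPM (vertical axis from 0), by group, with bars for means, error bars for SD and points for the 3 libraries of each group. Ccnb1 averages 79.9 CPM in AdKlf2 with PE and 16.1 CPM in AdGFP with PE, whereas Top2a averages 20.2 CPM in AdKlf2 with PE and 41.8 CPM in AdGFP with PE.

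**Figure D3:**
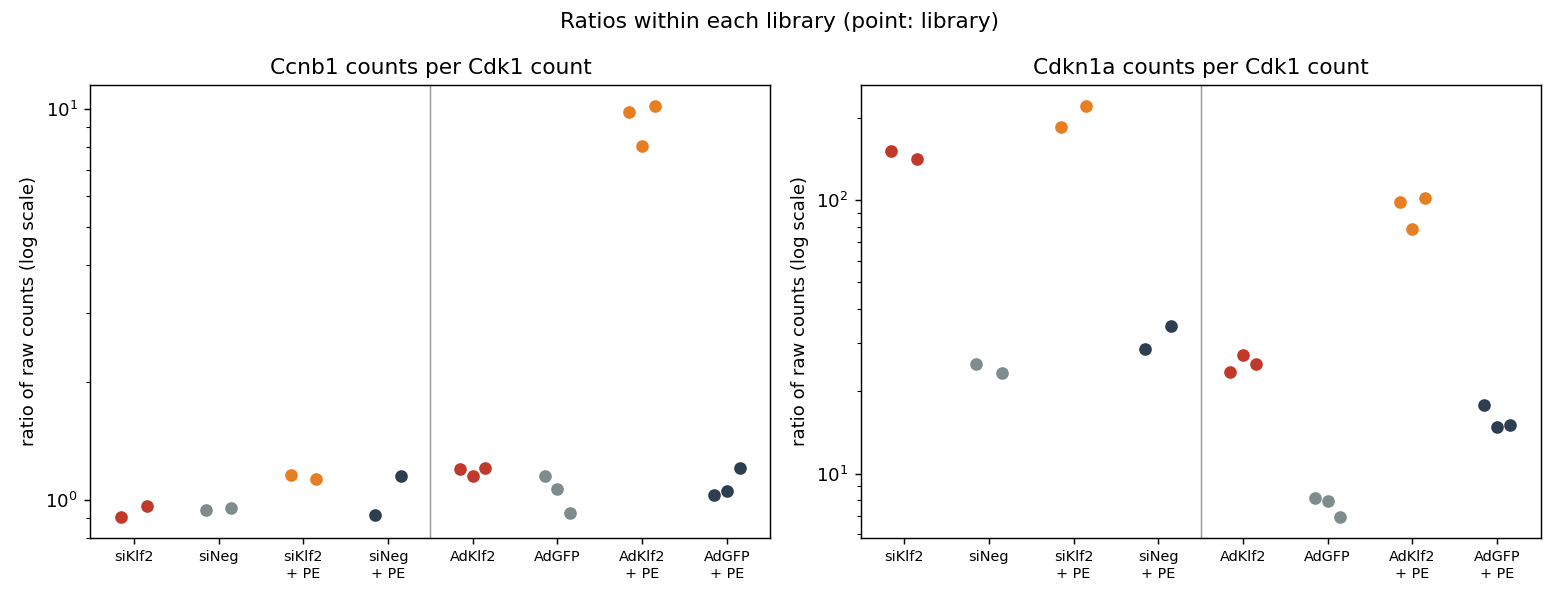
Counts of Ccnb1 (left) and Cdkn1a (right) per Cdk1 count in each of the 20 libraries, on log axes, with knockdown groups left and overexpression groups right of the grey line. The Ccnb1 ratio is 8.07 to 10.2 in AdKlf2 with PE and at most 1.21 elsewhere, and the Cdkn1a ratio is higher in siKlf2 and AdKlf2 groups than in their controls.

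The response to PE was then followed in each arm. In siNeg cells 4 of 8 members were called for PE, 2 lower and 2 higher, where 49.1% of all tested genes were called, 24.8% higher and 24.3% lower. Scaled by library totals, 33.2% of all called genes were higher, in place of 50.6%. None of the members called reached a fold of 1.5, against 13.9% of all tested genes. Ccna2 averaged 8.98 ± 0.497 CPM in siNeg with PE and 11.5 ± 0.237 CPM in siNeg (SD, n = 2 each), with a log2 fold change of -0.36 (SE 0.0649, adjusted p = 0.000698 in edgeR's test). Mki67 averaged 21.8 ± 0.561 CPM in siNeg with PE and 25.4 ± 1.31 CPM in siNeg (SD, n = 2 each), with a log2 fold change of -0.22 (SE 0.0741, adjusted p = 0.0304 in edgeR's test). Ccnd1 and Cdkn1a were higher with PE, with log2 fold changes of 0.25 (SE 0.0328, adjusted p = 5.68e-05) and 0.17 (SE 0.0427, adjusted p = 0.00523). The Mki67 call was lost without siNeg replicate 2 (adjusted p = 0.194) or siNeg with PE replicate 2 (adjusted p = 0.105), over a range of 0.00267 to 0.194 in 16 alternatives. Without siNeg replicate 2 the Cdkn1a call was lost as well (adjusted p = 0.0686), which left 2 called members, and it was lost with library totals alone (adjusted p = 0.173, the highest of 16 alternatives, against a lowest of 4.11e-05). Top2a, Cdk1, Ccnb1 and Pcna had log2 fold changes of 0.02, -0.20, -0.09 and 0.03 with adjusted p of 0.878, 0.0667, 0.419 and 0.655. Cdk1 was called lower in 4 of 16 alternatives, which were library totals alone, no filter, limma voom and without siNeg with PE replicate 1 (adjusted p from 0.0113 to 0.383 over the 16).

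In siKlf2 cells PE raised Ccnd1 and Cdkn1a, 2 of 8 members, where 48.1% of all tested genes were called, 24.4% higher and 23.7% lower. Under library totals 23.6% of the called genes were higher, in place of 50.8%, and the members called were Mki67, Cdk1 and Ccna2, lower, and Ccnd1, higher. With TMM factors no member called reached a fold of 1.5, against 13.7% of all tested genes. Ccnd1 averaged 74.9 ± 0.745 CPM in siKlf2 with PE and 53.5 ± 0.772 CPM in siKlf2 (SD, n = 2 each), with a log2 fold change of 0.48 (SE 0.0325, adjusted p = 2.85e-07 in edgeR's test). Cdkn1a averaged 798 ± 27.9 CPM in siKlf2 with PE and 672 ± 0.587 CPM in siKlf2 (SD, n = 2 each), with a log2 fold change of 0.25 (SE 0.0425, adjusted p = 0.000528 in edgeR's test). The Cdkn1a call was lost with library totals alone (adjusted p = 0.144, the highest of 16 alternatives, against a lowest of 2.62e-09). The other members did not pass, with log2 fold changes of -0.22 for Cdk1, -0.16 for Ccna2, -0.10 for Mki67, 0.07 for Ccnb1, 0.08 for Pcna and 0.21 for Top2a (adjusted p = 0.0655, 0.0902, 0.344, 0.576, 0.161 and 0.18). Top2a varied with its siKlf2 libraries with PE: without replicate 1 its log2 fold change was -0.05, and without replicate 2 it was 0.46 and was called higher (adjusted p = 0.000239, the lowest of 16 alternatives, against a highest of 0.817). Top2a was also called higher with no filter. Cdk1 was called lower in 5 of 16 alternatives (adjusted p from 0.00361 to 0.435). Without replicate 1 of siKlf2 with PE 4 members were called, with Mki67 and Cdk1 lower.

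Among the members, the difference between the PE responses of siKlf2 and siNeg cells was called for Ccnd1, at 0.23 on the log2 scale (SE 0.0461, adjusted p = 0.00687 in edgeR's test). That is 1 of 8 members, where 14.4% of tested genes showed an interaction by the same test, 7.08% higher and 7.35% lower, and 2.46% had one of at least 1.5-fold, a size no member reached. With library totals alone, 24.2% of all such calls were higher, in place of 49.1%. The Ccnd1 call was lost under that scaling (adjusted p = 0.0834, the highest of 15 alternatives, against a lowest of 0.000719). Without siKlf2 with PE replicate 2, Top2a was called as well (log2 difference 0.43, adjusted p = 0.0073, the lowest of 15 alternatives, against a highest of 0.684). The other 7 members had log2 differences of -0.02 for Cdk1, 0.06 for Pcna, 0.07 for Cdkn1a, 0.12 for Mki67, 0.16 for Ccnb1, 0.18 for Top2a and 0.20 for Ccna2, with adjusted p from 0.211 for Ccna2 to 0.942 for Cdk1.

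In AdGFP cells PE lowered 5 members and raised 2, where 34.6% of all tested genes were called, 18.3% higher and 16.3% lower (with library totals alone, 30.1% of all called genes were higher, in place of 52.9%), and 1 member passed a fold of at least 1.5, against 14% of all tested genes. That member was Ccna2, at 13.1 ± 0.57 CPM in AdGFP with PE and 24.4 ± 1.69 CPM in AdGFP (SD, n = 3 each), a 1.86-fold fall (log2 fold change -0.90, SE 0.104, adjusted p = 1.77e-06 in edgeR's test). Cdk1 and Ccnb1 fell together, by 0.50 and 0.42 on the log2 scale (adjusted p = 0.0033 and 0.00474). Mki67 and Top2a fell by 0.30 and 0.24 (adjusted p = 0.0251 and 0.0341). Both of these calls were lost without AdGFP replicate 2 and without AdGFP with PE replicate 1. That of Mki67 was also lost without AdGFP replicate 1, and that of Top2a without AdGFP with PE replicate 3 and in a fit of only the AdGFP groups. Adjusted p ran up to 0.14 for Mki67, from 0.00148, and up to 0.172 for Top2a, from 0.00203, over 20 alternatives each. Ccnd1 rose by 0.52 (SE 0.072, adjusted p = 1.68e-05) and Cdkn1a by 0.56 (SE 0.065, adjusted p = 1.98e-06). Pcna had a log2 fold change of 0.16 (adjusted p = 0.098), which was called without AdGFP replicate 3 (adjusted p = 0.0263, the lowest of 20 alternatives, against a highest of 0.837). The AdGFP libraries that stood apart are on one side of this comparison, and their part in it was not tested beyond leaving out each one.

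In AdKlf2 cells PE lowered Mki67, Top2a, Cdk1, Ccna2 and Ccnd1 and raised Ccnb1 and Cdkn1a, 7 of 8 members, where 61.3% of all tested genes were called, 31.6% higher and 29.6% lower. When scaled by totals, 39.2% of called genes were higher, in place of 51.7%. Of the members, 6 passed a fold of at least 1.5, against 39.9% of all tested genes. Top2a averaged 20.2 ± 1.85 CPM in AdKlf2 with PE and 43.0 ± 0.404 CPM in AdKlf2 (SD, n = 3 each), with a log2 fold change of -1.10 (SE 0.0881, adjusted p = 2.92e-09 in edgeR's test). Cdk1 fell by 0.98 (SE 0.123), Ccna2 by 1.20 (SE 0.106) and Mki67 by 0.71 (SE 0.103), with adjusted p of 1.23e-06, 1.13e-08 and 6.94e-06. Ccnb1 averaged 79.9 ± 1.03 CPM in AdKlf2 with PE and 20.1 ± 2.92 CPM in AdKlf2 (SD, n = 3 each), a 3.99-fold rise (log2 fold change 1.99, SE 0.107, adjusted p = 8.66e-12 in edgeR's test). Cdkn1a averaged 790.3 ± 15.9 CPM in AdKlf2 with PE and 425 ± 41.8 CPM in AdKlf2 (SD, n = 3 each), with a log2 fold change of 0.90 (SE 0.0646, adjusted p = 6.25e-10 in edgeR's test). Ccnd1 averaged 48.8 ± 0.387 CPM in AdKlf2 with PE and 64.1 ± 2.95 CPM in AdKlf2 (SD, n = 3 each), with a log2 fold change of -0.39 (SE 0.0716, adjusted p = 9.86e-05 in edgeR's test). PE thus went with less Ccnd1 in AdKlf2 cells and with more of it in the other 3 arms. Pcna had a log2 fold change of -0.04 (adjusted p = 0.618), and was called lower with library totals alone (log2 fold change -0.24, adjusted p = 0.006, the lowest of 20 alternatives, against a highest of 1).

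The test of the difference between these PE responses was called for 6 of 8 members, 2 higher and 4 lower, where 49.1% of all tested genes were called, 25.1% higher and 24% lower. Of these, 3 differed by at least 1.5-fold, against 35.1% of all tested genes. The Ccnb1 response was higher in AdKlf2 than in AdGFP by 2.42 on the log2 scale (SE 0.151, adjusted p = 1.74e-10), which ranked 1466 of 16153 tested genes by size. The Cdkn1a response was higher by 0.34 (SE 0.0912, adjusted p = 0.00472). The Top2a, Ccnd1, Mki67 and Cdk1 responses were lower in AdKlf2, with log2 differences of -0.85 (SE 0.122, adjusted p = 1.04e-05), -0.91 (SE 0.102, adjusted p = 4.58e-07), -0.41 (SE 0.144, adjusted p = 0.0244) and -0.49 (SE 0.171, adjusted p = 0.0248). Ccna2 and Pcna had log2 differences of -0.30 and -0.20 with adjusted p of 0.104 and 0.111. The Mki67 call was lost without AdGFP replicate 3, AdKlf2 replicate 2 or AdGFP with PE replicate 2 or 3, with adjusted p from 0.00338 to 0.0749 over 19 alternatives. The Cdk1 call was lost without AdKlf2 replicate 3 or AdKlf2 with PE replicate 1 or 3, with adjusted p from 0.00639 to 0.0764 over 19 alternatives. The Pcna difference was called without AdGFP replicate 3 and with library totals alone, with adjusted p from 0.0212 to 0.224 over 19 alternatives. All these values include the AdGFP libraries without PE.

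**Figure D4:**
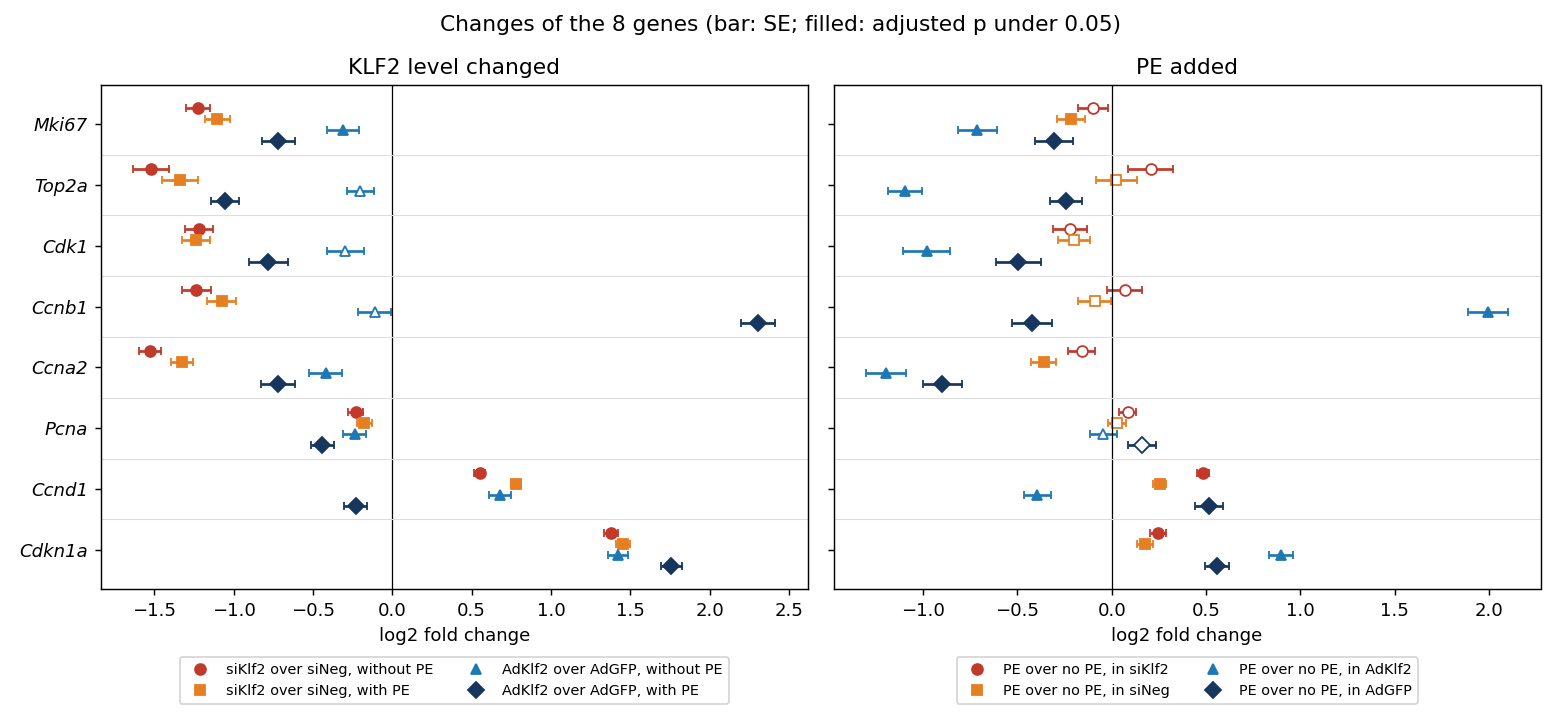
Log2 fold changes of the 8 genes (rows) in the 4 comparisons of KLF2 level (left) and the 4 of PE (right), with SE bars, filled where the adjusted p was under 0.05 and open where it was not. Cdkn1a lies between 1.38 and 1.76 in all 4 comparisons of KLF2 level, and Ccnb1 reaches 2.31 in AdKlf2 over AdGFP with PE while Cdk1 is at -0.78 there.

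The order of the groups, ranked by mean CPM, differed between members. How many of all tested genes have steps that pass was not counted. In the knockdown table both siNeg groups ranked above both siKlf2 groups for Mki67, Top2a, Cdk1, Ccnb1, Ccna2 and Pcna, and the step between the arms passed the test for each. Within the siKlf2 arm the 2 groups did not pass for any of these 6, and within the siNeg arm they passed for Mki67 and Ccna2 only. For Ccnd1 and Cdkn1a the order was siKlf2 with PE, siKlf2, siNeg with PE and siNeg, and every step passed. In the overexpression table Cdkn1a ran from AdKlf2 with PE at 790.3 CPM through AdKlf2 at 425 CPM and AdGFP with PE at 233 CPM to AdGFP at 158 CPM, and every step passed. For Ccna2 the ends were exchanged, with AdGFP highest at 24.4 CPM and AdKlf2 with PE lowest at 7.97 CPM. Between them AdKlf2 ranked above AdGFP with PE, as it did for Cdkn1a, and each step passed. For Mki67, Top2a and Cdk1 AdGFP was highest and AdKlf2 with PE lowest, and the middle groups, AdKlf2 and AdGFP with PE, did not pass against each other (adjusted p = 0.977, 0.75 and 0.212). For Top2a and Cdk1 the step between AdKlf2 and AdGFP did not pass either. For Ccnd1 AdKlf2 and AdGFP with PE were the upper groups and did not pass against each other (adjusted p = 0.0803), and the steps down to AdKlf2 with PE and then to AdGFP passed. For Ccnb1 AdKlf2 with PE was highest, AdKlf2 and AdGFP did not pass against each other (adjusted p = 0.457), and AdGFP with PE was lowest. For Pcna the AdGFP groups ranked above the AdKlf2 groups, and neither pair passed within its arm (adjusted p = 0.098 for AdGFP and 0.618 for AdKlf2).

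How the members varied together is given as a description, since libraries of a group share their condition and scaling. Over the 8 knockdown libraries the log2 CPM of Mki67, Top2a, Cdk1 and Ccna2 correlated with each other at 0.956 to 0.994 (Pearson), and those of Ccnb1 with them at 0.974 to 0.989. Cdkn1a correlated with the same 4 genes at -0.996 to -0.959. Over the 12 overexpression libraries the 4 genes correlated at 0.873 to 0.958 with each other, Cdkn1a with them at -0.893 to -0.788, and Ccnb1 with them at -0.918 to -0.735. These Ccnb1 values include AdKlf2 with PE, where it had 8.07 to 10.2 counts per Cdk1 count. Over the other 9 libraries that ratio was 0.925 to 1.21, and correlations over those 9 alone were not computed. Against the same 4 genes, Ccnd1 lay between -0.927 and -0.808 over knockdown libraries but between -0.185 and 0.0138 over overexpression libraries. For Pcna the values were 0.856 to 0.911 and, over overexpression libraries, 0.331 to 0.524.

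Other genes with like profiles were sought among the 10170 genes that averaged 5 CPM or more in each table, by the lower of the correlations over the 8 knockdown and the 12 overexpression libraries. A value of at least 0.9 was reached by 82 genes for Top2a, 80 for Cdk1, 74 for Mki67 and 53 for Ccna2. It was reached by 139 genes for Ccnb1 and 136 for Cdkn1a, but by 3 for Pcna and 1 for Ccnd1. Such numbers were not counted for genes outside the members. The gene most like Top2a was ENSRNOG00000056069 (correlations 0.994 and 0.99) and that most like Ccna2 was ENSRNOG00000058739 (0.998 and 0.979). Those most like Ccnb1 and Cdkn1a were ENSRNOG00000027906 (0.976 and 0.978) and ENSRNOG00000005358 (0.998 and 0.984). No symbols were paired with these IDs in the sources used here.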

How the data were processed

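The deposited values are raw counts per Ensembl gene ID in 2 tables, 1 for each experiment. The authors made them with Trim Galore, STAR and featureCounts on build mRatBN7.2, per the submitters' processing notes, and versions and the strand setting are not given in the sources used here. Per the labels' protocols, 400 ng of total RNA went into each library. Columns were assigned to samples by library name. The 8 members and all lists were chosen with earlier results of these data known.

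Each table was analysed on its own in edgeR 4.0.16 (R 4.3.3). Genes passed filterByExpr (minimum count 10, minimum total 15), leaving 18173 for the knockdown experiment and 16153 for overexpression. TMM factors were 0.87 to 1.12 and 0.904 to 1.08. A single quasi-likelihood model per table held its 4 groups, and tests were two-sided. The difference between PE responses was the interaction contrast. The procedure was tested on simulated data. The log2 CPM used for correlations had a prior count of 2.

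Alternatives were RLE size factors, library totals alone, dropping the filter, DESeq2 1.42.0, replicate number as a block, models restricted to the pair of groups compared, limma 3.58.1 voom with quality weights, counts halved and each library left out in turn. Where that leaves 1 library in a group, it is assumed to vary like the other groups.

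The RefSeq table matched 0 of the Ensembl IDs. The lists of further cell cycle, p53 target and cell type marker genes, written as symbols, were therefore not used. All 8 members are named in every comparison, and of the genes most alike only the closest for 4 members are printed. Peaks at the members were not analysed, because no annotation on the build of the peaks was used here. RefSeq lists pseudogenes under the names of Mki67 (1), Cdk1 (1) and Pcna (3), so their counts may be shared with copies. Tables used Python 3.11.15, numpy 2.4.6 and pandas 2.3.3, and figures matplotlib 3.10.9.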

Additional observations from a re-analysis of the deposited data

Results flagged for a closer look

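A total of 7 results were set apart because the response to PE differed between the arms of an experiment in the test of that difference (edgeR adjusted p under 0.05). In the knockdown experiment this was Ccnd1, whose response was higher in siKlf2 than in siNeg by 0.23 on the log2 scale. In the overexpression experiment the difference between AdKlf2 and AdGFP was 2.42 for Ccnb1 and 0.34 for Cdkn1a, in both cases a higher response in AdKlf2. It was -0.91 for Ccnd1, -0.85 for Top2a, -0.49 for Cdk1 and -0.41 for Mki67, each a lower response in AdKlf2. These calls covered 1 of 8 members for knockdown, beside 14.4% of all tested genes. For overexpression they covered 6 of 8 members, beside 49.1% of all tested genes. The Ccnb1 value stood between 2.30 and 2.49 over 19 alternatives, while Cdk1, Mki67 and, in the knockdown experiment, Ccnd1 each lost their call in at least 1. The same interaction values describe how the effect of KLF2 level differed with PE. The AdGFP libraries without PE, which had few genes at 1 to 5 counts (539 to 776), enter every overexpression value, and their part in these differences was not tested beyond leaving out each of them.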

How the results depend on the processing

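Of 128 member results for siKlf2 over siNeg without PE, counted over all alternatives, 128 kept their direction and side of the threshold. With PE 126 did and 2 lost their call. For AdKlf2 over AdGFP with PE 158 did and 2 lost their call, and without PE 144 did, 11 lost their call, 4 gained one and 1 reversed. Scaling by library totals moved the median log2 fold change of all genes to -0.22 and -0.30 in siKlf2 over siNeg without and with PE, to -0.12 and -0.19 for PE in siNeg and siKlf2, to -0.13 in AdKlf2 over AdGFP with PE, and to -0.15 and -0.21 for PE in AdGFP and AdKlf2. Every member called in a comparison of KLF2 level kept its call under it, and Top2a and Cdk1 gained one in AdKlf2 over AdGFP without PE.

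With a library left out, the number of members called changed in most comparisons. For PE in AdGFP it was 5 to 8, for siKlf2 over siNeg with PE 7 to 8, for AdKlf2 over AdGFP with PE 7 to 8 and for the PE by AdKlf2 interaction 5 to 6, while it stayed at 8 for siKlf2 over siNeg without PE and at 7 for PE in AdKlf2. For PE in siKlf2 it was 4 with library totals and 4 with no filter, and 2 to 4 with a library left out. For PE in siNeg it was 2 to 5 with a library left out, for AdKlf2 over AdGFP without PE 3 to 5, and for the PE by siKlf2 interaction 1 to 2, with 0 under library totals. All genes called for that interaction ranged from 1553, without siNeg replicate 2, to 3312, without siNeg with PE replicate 1, against 2622.

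Reversals touched only values that had not been called. With library totals, Top2a and Pcna were at -0.079 and -0.0741 for PE in siNeg, Ccnb1 and Pcna at -0.101 and -0.0868 for PE in siKlf2, and Pcna at -0.0127 for the PE by siKlf2 interaction. Pcna for PE in AdKlf2 was at 5.23e-06 with RLE size factors and 0.000606 with DESeq2. With a library left out, PE in siNeg gave -0.0105 to 0.0611 for Top2a and -0.0257 to 0.0824 for Pcna. PE in siKlf2 gave -0.222 to 0.0485 for Mki67, -0.0544 to 0.458 for Top2a and -0.0304 to 0.194 for Ccnb1. The PE by siKlf2 interaction gave -0.00833 to 0.262 for Mki67, -0.0822 to 0.43 for Top2a and -0.121 to 0.0862 for Cdk1, and AdKlf2 over AdGFP without PE gave -0.167 to 0.0259 for Ccnb1. Beyond the fewer libraries in a fit, the cause was not tested.

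Libraries of the same number did not deviate together (their correlations were -0.0432 to 0.0403 among knockdown libraries and -0.0203 to 0.0446 among overexpression libraries). With the replicate number as a block, all 80 member results kept their direction and call, with 8 members called in siKlf2 over siNeg without PE. The 2 libraries per knockdown group limit the precision of small changes such as those of Pcna. Its SE was still smaller in siKlf2 over siNeg without PE (0.046) than in AdKlf2 over AdGFP without PE (0.0724).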
